A study of Mus musculus with 12 samples.

Results

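The Wnt family examined here comprises the secreted Wnt ligands, their Frizzled receptors and co-receptors, and the secreted antagonists. It also holds the R-spondin and LGR genes with the ubiquitin ligases they act on, the nuclear effectors Lef1 and Tcf7, and the feedback gene Axin2. Members were the protein-coding genes with a symbol of these families in the authors' deposited table, and 57 of the 55385 listed genes qualified. Polyadenylated RNA of mouse cerebellum at postnatal day 14 had been sequenced from 3 EED-/- and 3 WT libraries, both on the C57BL/6 strain. The EED-/- animals are conditional knockouts of Eed, a core subunit of Polycomb repressive complex 2, which places the repressive mark H3K27me3. The labels name the knockout samples cKO without a Cre driver or a deleted region, and do not say whether each library is 1 animal, so p-values measure the spread between these libraries only. The question put to the data was how transcripts of the Wnt family differ between EED-/- and WT cerebellum.

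Wnt proteins are lipid-modified signals that bind a Frizzled receptor together with a co-receptor. With Lrp5 or Lrp6 they stabilise β-catenin, which joins TCF/LEF factors on target genes. With Ror or Ryk receptors they act without β-catenin. In the cerebellum Wnt1 is needed at the midbrain-hindbrain boundary before the organ forms, and Wnt7a, made by granule neurons, is known to remodel the mossy fibre axons that contact them.

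The libraries held 19621814 to 20366173 estimated counts each, so 1 CPM (a gene's counts relative to the library total, scaled between libraries) was about 20.1 counts. Eed itself was 11.6, 9.31 and 11.3 CPM in EED-/- replicates 1, 2 and 3, against 20.1, 26.6 and 23.5 CPM in WT replicates 1, 2 and 3, a 2.18-fold lower level (edgeR adjusted p = 0.0015). No EED-/- library reached the WT range. The first principal component held 55.7% of the variance. Libraries of the same genotype correlated at 0.971 to 0.984, and libraries of different genotypes at 0.943 to 0.957. EED-/- replicate 1 stood apart for the dopamine transporter gene Slc6a3, a midbrain marker singled out after its values were seen: it read 61.2, 12.9 and 1.47 CPM in the EED-/- libraries and 0.667, 0.215 and 0.465 CPM in the WT libraries. WT libraries also stood apart for brainstem genes, likewise named after their values were seen. The serotonin transporter gene Slc6a4 read 27.8, 1.72 and 16.2 CPM in WT replicates 1, 2 and 3, and Tph2, which makes serotonin, 18.6, 1.93 and 14.7 CPM. WT replicate 1 was the lowest library for Slc17a6, a glutamate transporter gene of brainstem neurons, at 58.1 CPM against 157 and 119 CPM in WT replicates 2 and 3. Counts without each library are therefore given beside the results.

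Of the 57 members 49 had enough counts to be tested, and 17 were higher and 9 lower in EED-/- cerebellum (Benjamini-Hochberg adjusted p under 0.05 over all genes tested). Over all 18091 genes tested 11.7% were higher and 14.1% lower. The median log2 change was 0.25 over the 49 members and -0.03 over all genes tested. Libraries did not overlap, with EED-/- above WT, for 21 members (20.1% of all genes tested), and with EED-/- below WT for 13 members (23.8% of all genes tested). The largest changes were a rise of the receptor Fzd10 and of the ligand Wnt8b, and falls of the receptor Fzd7, the ligand Wnt7a and the antagonist Frzb. Higher and lower members occurred together among ligands, Frizzled receptors, co-receptors, antagonists and the R-spondin and LGR genes. Leaving out EED-/- replicate 1, EED-/- replicate 2 or WT replicate 3 left 10, 11 and 10 members higher and 5, 6 and 6 lower. In the same order 6.5%, 7.22% and 7.15% of all genes were higher in those fits, and 7.2%, 9.35% and 8.85% were lower. Without EED-/- replicate 3, WT replicate 1 or WT replicate 2 there were 13, 18 and 12 members higher and 8, 9 and 8 lower, where 10.5%, 11.7% and 11% of all genes were higher and 9.08%, 11.1% and 13.4% lower. Upper-quartile scaling gave 19 members higher and 8 lower, where 15.6% and 9.87% of all genes were; with library size as the only scaling the members' counts were equal to these and 14.6% and 10.3% of all genes were called. At the same threshold the authors' deposited table had 16 members higher and 8 lower, where 10.3% and 11.4% of its 20614 genes with an adjusted p below 1 were. Fzd8 and Sfrp4 were the called members that the authors' deposited table did not call.

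**Figure D1:**
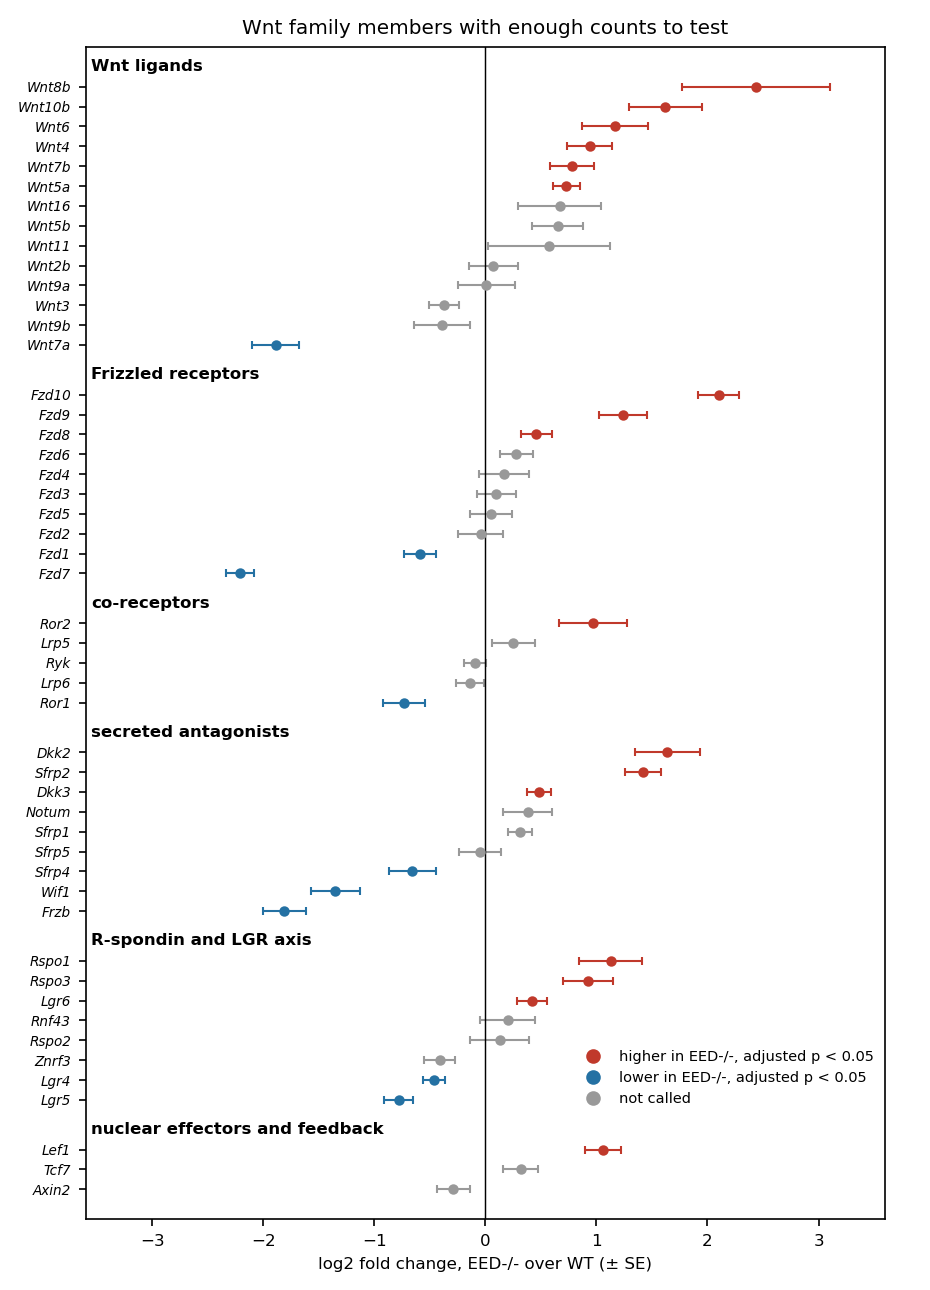
Log2 fold change of EED-/- over WT (x axis, ± SE) for the 49 tested members, grouped by role; red points were higher, blue points lower and grey points not called. Each of the first 5 groups holds members on both sides of 0, from Fzd7 at -2.21 to Wnt8b at 2.44.

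Polycomb repressive complex 2 is known to act at promoters rich in CpG dinucleotides, so the bases just before the transcription start are shown for 5 members whose levels changed in either direction. They are the fallen ligand Wnt7a, the fallen receptor Fzd7, the risen ligand Wnt10b and the risen antagonists Sfrp2 and Dkk2. Sequences are from RefSeq on GRCm38.p6, read 5′ to 3′ on the gene's strand, end before the gene's first annotated base, and carry each CpG in capitals.
Wnt7a, chr6:91411364-91411603, minus strand: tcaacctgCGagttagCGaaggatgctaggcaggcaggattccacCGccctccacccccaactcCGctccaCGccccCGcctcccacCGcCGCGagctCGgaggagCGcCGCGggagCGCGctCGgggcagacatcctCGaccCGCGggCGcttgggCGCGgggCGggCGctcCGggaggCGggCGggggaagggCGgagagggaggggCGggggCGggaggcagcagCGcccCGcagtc
Fzd7, chr1:59481897-59482146, plus strand: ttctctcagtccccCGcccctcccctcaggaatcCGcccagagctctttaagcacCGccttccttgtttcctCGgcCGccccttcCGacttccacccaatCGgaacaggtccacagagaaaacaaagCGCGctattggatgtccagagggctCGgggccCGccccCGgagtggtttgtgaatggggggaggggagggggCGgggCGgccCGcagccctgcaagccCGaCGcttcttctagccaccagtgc
Wnt10b, chr15:98778151-98778400, minus strand: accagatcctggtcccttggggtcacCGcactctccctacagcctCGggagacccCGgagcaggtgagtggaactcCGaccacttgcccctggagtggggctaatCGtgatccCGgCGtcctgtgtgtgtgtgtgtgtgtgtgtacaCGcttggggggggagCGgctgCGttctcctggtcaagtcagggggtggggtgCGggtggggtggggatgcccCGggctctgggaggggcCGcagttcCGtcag
Sfrp2, chr3:83766071-83766320, plus strand: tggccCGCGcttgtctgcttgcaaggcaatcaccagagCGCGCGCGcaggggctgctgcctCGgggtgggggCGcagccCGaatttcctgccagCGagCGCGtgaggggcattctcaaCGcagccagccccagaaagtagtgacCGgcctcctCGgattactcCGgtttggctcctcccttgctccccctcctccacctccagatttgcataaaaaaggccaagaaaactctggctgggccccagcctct
Dkk2, chr3:132085042-132085291, plus strand: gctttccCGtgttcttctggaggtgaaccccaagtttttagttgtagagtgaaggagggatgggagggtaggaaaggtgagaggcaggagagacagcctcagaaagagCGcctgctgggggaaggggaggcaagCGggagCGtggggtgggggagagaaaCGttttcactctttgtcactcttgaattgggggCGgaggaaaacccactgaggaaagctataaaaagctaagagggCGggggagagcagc
The Wnt7a stretch of 240 bases held 32 CpGs, and the 250-base stretches of Fzd7, Wnt10b, Sfrp2 and Dkk2 held 17, 14, 16 and 7. The RefSeq start used for Fzd7 lies 277 bases before its annotated gene start, so that stretch does not adjoin the annotated gene.

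The 250-base windows before the RefSeq starts of 38 of the 57 members held a median of 22 CpGs, against 6 over all 32851 RefSeq windows, of which the middle 50% lay between 2 and 16. These sets are not alike. Each member gave only the window nearest its annotated start, while all windows include several for some genes and were not filtered by gene type. Some members' windows lay in the gene's own exons, by 250 bases for Fzd10 and 229 for Frzb. The median was 19 (5 to 44) in the 12 windows of higher members, 16 (8 to 34) in the 7 of lower members and 28.5 in the 14 of members not called. The word CTTTGA, the core of the TCF/LEF site, was searched for on both strands, as CTTTGA or TCAAAG. It was found in 5 of the 38 windows, those of Dkk1, Frzb, Fzd1, Ror1 and Wnt11, and in 13.8% of all windows.

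**Figure D2:**
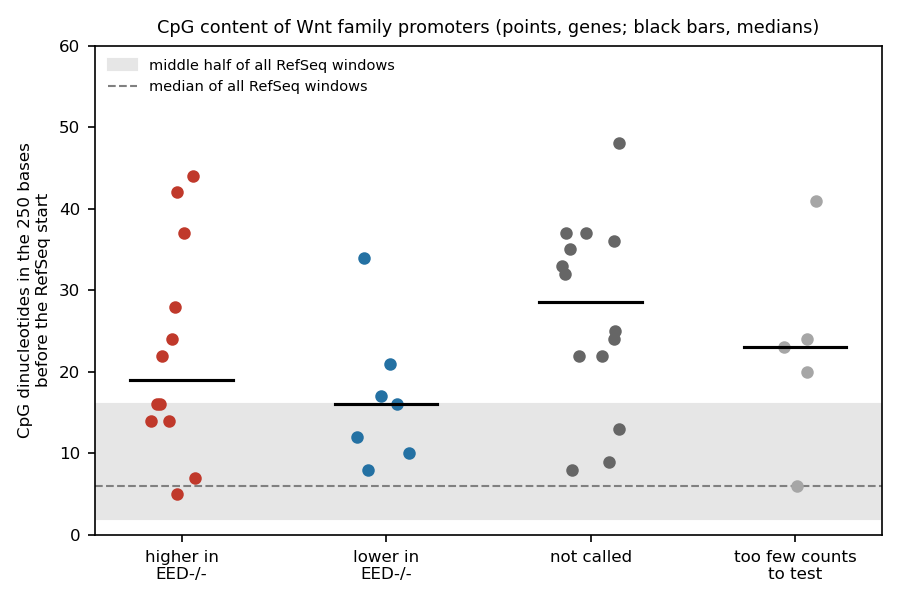
CpG dinucleotides (y axis) in the 250 bases before the RefSeq start of 38 Wnt family genes, by outcome of the test; black bars are medians and the grey band the middle 50% of all 32851 windows. Medians of the higher and lower members were 19 and 16, and that of members not called was 28.5. The overall median was 6, over windows that were chosen differently from those of the members.

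Among the ligands 6 were higher, 1 was lower and 7 were not called, and 5 had too few counts. Wnt7a (chromosome 6, 91363981 to 91411363 in GRCm38, minus strand) was the one that fell: it read 12, 16.1 and 13.6 CPM in EED-/- libraries, against 68.6, 45.1 and 41.4 CPM in WT libraries. Every EED-/- value lay below every WT value, and WT replicate 1 was the highest of all. The means of 13.9 ± 2.08 and 51.7 ± 14.7 CPM (SD, n = 3 libraries each) gave a log2 fold change of -1.89 (SE 0.211, edgeR adjusted p = 0.000611), a 3.72-fold lower level. Wnt7b, its closest relative, had 21.9, 24.2 and 14.4 CPM in EED-/- libraries and 11.6, 10.9 and 12.6 CPM in WT libraries. It was 1.72-fold higher (adjusted p = 0.0197), although EED-/- replicate 3 lay near the WT values. Wnt7a and Wnt7b are known together from blood vessel growth into the brain.

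Wnt10b, a ligand of the β-catenin branch, had 5.02, 5.88 and 4.16 CPM in EED-/- libraries and 2.57, 1.13 and 1.19 CPM in WT libraries. It was 3.07-fold higher (log2 fold change 1.62, SE 0.33, adjusted p = 0.00868), with WT replicate 1 the nearest to the EED-/- range. Wnt5a, the best known ligand of Ror receptors, had 26.6, 30.0 and 28.5 CPM in EED-/- libraries and 16.5, 15.7 and 19.0 CPM in WT libraries. It was 1.66-fold higher (adjusted p = 0.0038), with little spread in either genotype. Wnt4, known from kidney and gonad formation, had 9.37, 12.6 and 7.88 CPM in EED-/- libraries and 5.18, 4.72 and 5.58 CPM in WT libraries, a 1.92-fold difference (adjusted p = 0.0105). The EED-/- values of Wnt4 were more scattered than the WT values, but the genotypes did not overlap.

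Wnt6, known from epithelial development, had 1.99, 3.01 and 1.71 CPM in EED-/- libraries and 1.03, 0.858 and 1.09 CPM in WT libraries, 2.25-fold higher (adjusted p = 0.0207). Wnt8b, a ligand of the embryonic cortical hem, had the fewest counts of any called member, with 11, 19 and 19 counts in EED-/- libraries and 0, 3 and 5 counts in WT libraries. Its fitted log2 fold change of 2.44 (SE 0.665, adjusted p = 0.0278) rests on 49 against 8 counts. At that depth the size of the change is poorly fixed. The call of Wnt7b was lost without EED-/- replicate 1, EED-/- replicate 2 or WT replicate 3 (adjusted p = 0.0555 to 0.0802). Wnt6 was not called without EED-/- replicate 1, EED-/- replicate 2, WT replicate 2 or WT replicate 3 (0.052 to 0.0815), nor Wnt8b without any EED-/- library or without WT replicate 2 (0.0534 to 0.0879).

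The ligands not called were Wnt3, Wnt5b, Wnt16, Wnt11, Wnt2b, Wnt9a and Wnt9b. Wnt3, known from Purkinje cells, averaged 11.9 ± 0.747 CPM in EED-/- and 15.4 ± 1.34 CPM in WT libraries (adjusted p = 0.0776), and Wnt5b 2.62 ± 0.459 and 1.67 ± 0.0713 CPM (adjusted p = 0.0669). Neither gene's libraries overlapped between genotypes. The adjusted p of the other 5 ran from 0.224 to 0.982. Wnt1, Wnt2, Wnt3a, Wnt8a and Wnt10a were not tested. Wnt10a had 9, 8 and 8 counts in EED-/- libraries and 3, 2 and 4 counts in WT libraries. Wnt1 had at most 3 counts in any library, and Wnt8a had 0 in all of them.

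**Figure D3:**
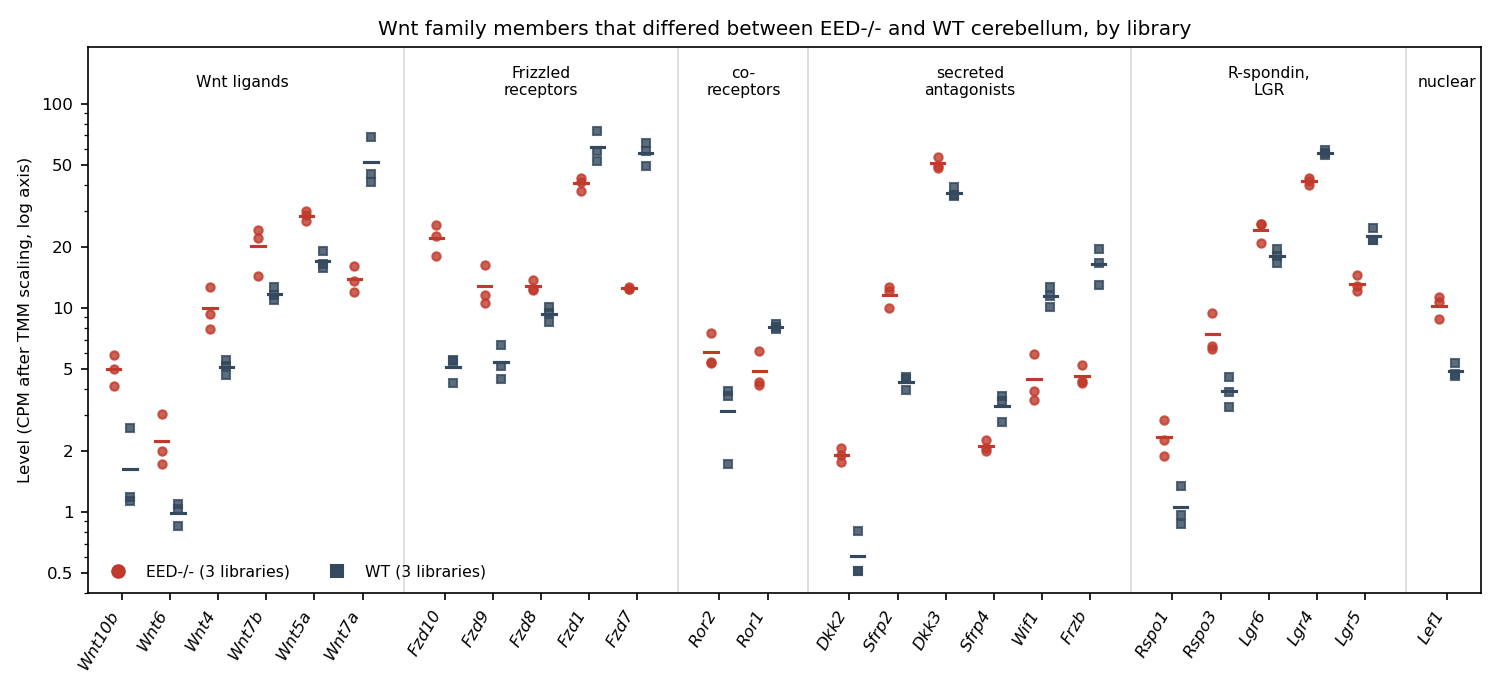
Level in CPM (y axis, log scale) of 25 called members in each of the 3 EED-/- (red circles) and 3 WT (dark squares) libraries, with horizontal bars at the means. The genotypes do not overlap for any of the 25; Wnt8b, with 0 counts in WT replicate 1, is not drawn.

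Per kilobase of exon, which allows levels of different genes to be set side by side, Wnt7a made up 16.6 ± 1.97% of all ligand transcripts in EED-/- and 49.6 ± 6.29% in WT libraries (SD, n = 3 each). In WT cerebellum it led Wnt3 at 15.5 ± 1.42%. In EED-/- cerebellum the shares of Wnt7a, Wnt7b (16.3 ± 2.66%), Wnt5a (15.3 ± 1.62%) and Wnt3 (14.7 ± 1.82%) differed by less than their spread. The sum over all ligands was 26.4, 29.5 and 23.6 CPM per kb in EED-/- libraries and 38.4, 29.1 and 29.8 CPM per kb in WT libraries, and these ranges overlapped.

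All 10 Frizzled genes were tested; 3 were higher and 2 lower. Fzd7 (chromosome 1, 59482424 to 59486955), a receptor of the β-catenin branch, fell furthest of all members. It read 12.6, 12.4 and 12.4 CPM in EED-/- libraries, against 64.5, 58.6 and 49.7 CPM in WT libraries. The EED-/- values were almost identical, and the log2 fold change was -2.21 (SE 0.13, edgeR adjusted p = 4.03e-05), a 4.62-fold lower level. Fzd1, of the same receptor subfamily, had 37.6, 41.6 and 43.5 CPM in EED-/- and 73.5, 52.3 and 58.7 CPM in WT libraries, 1.5-fold lower (adjusted p = 0.0182). The third gene of that subfamily, Fzd2, did not follow: it averaged 11.8 ± 2.51 CPM in EED-/- and 12.1 ± 2.25 CPM in WT libraries (log2 fold change -0.04, SE 0.203, adjusted p = 0.907; 0.07 with upper-quartile scaling and 0.06 by library size), and its libraries overlapped.

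Fzd10 (chromosome 5, 128600844 to 128604093), known from the dorsal neural tube of the embryo, was the receptor that rose most. It had 18.0, 25.4 and 22.5 CPM in EED-/- libraries and 5.59, 4.29 and 5.48 CPM in WT libraries. The log2 fold change was 2.1 (SE 0.182, adjusted p = 0.000183), a 4.28-fold higher level, and the lowest EED-/- library lay well above the highest WT library. Fzd9, a close relative of Fzd10, had 11.6, 16.2 and 10.6 CPM in EED-/- and 6.57, 4.51 and 5.17 CPM in WT libraries, 2.36-fold higher (adjusted p = 0.00446). Fzd4, the other gene of this subfamily and the receptor for Norrin in blood vessels, averaged 26.2 ± 8.43 and 23.3 ± 3.58 CPM and was not called (adjusted p = 0.625).

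Fzd8 had 12.3, 13.7 and 12.4 CPM in EED-/- libraries and 10.1, 8.53 and 9.41 CPM in WT libraries. This 1.37-fold difference was close to the threshold (adjusted p = 0.0403). It was called only with all libraries or without WT replicate 1 among the fits that leave out a library (adjusted p = 0.0509 to 0.126 in the others). The call of Fzd1 was lost without EED-/- replicate 1, EED-/- replicate 2 or WT replicate 3 (0.0515 to 0.0886). Fzd3, known from axon guidance, Fzd5 and Fzd6 were not called (adjusted p = 0.204 to 0.884). Fzd3 averaged 101 ± 14.6 CPM in EED-/- and 94.7 ± 21.1 CPM in WT libraries.

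Per kilobase, Fzd7 made up 5.76 ± 0.521% of Frizzled transcripts in EED-/- and 24.4 ± 2.26% in WT libraries. Fzd1 held 20.3 ± 0.798% and 28 ± 3.24%, Fzd10 14 ± 1.33% and 3.02 ± 0.358%, and Fzd9 11.6 ± 2.27% and 4.51 ± 0.602%, each in EED-/- and then in WT libraries. The summed Frizzled level was 43.8, 50.9 and 49.3 CPM per kb in EED-/- libraries and 55.8, 50.0 and 50.3 CPM per kb in WT libraries. These sums overlapped. The share of Fzd10 was above that of Fzd7 in EED-/- and below it in WT cerebellum.

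**Figure D4:**
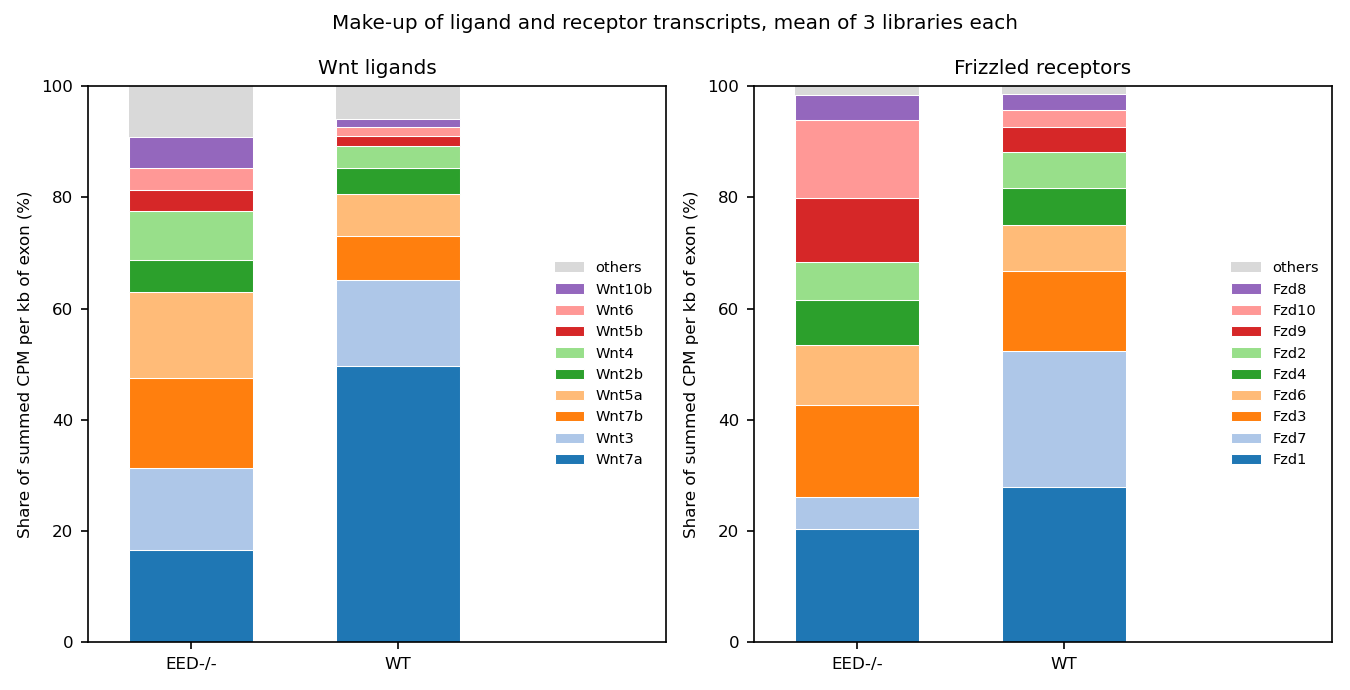
Share of summed CPM per kb (y axis, %) that each gene contributed to all Wnt ligand transcripts (left) and all Frizzled transcripts (right), as the mean of 3 EED-/- and 3 WT libraries. Wnt7a takes 16.6% of ligand transcripts in EED-/- and 49.6% in WT; Fzd7 takes 5.76% and 24.4% of Frizzled transcripts, and Fzd10 14% and 3.02%.

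Of the 5 co-receptors the receptor tyrosine kinases Ror1 and Ror2 were called, in opposite directions. Ror2 had 5.44, 7.53 and 5.38 CPM in EED-/- libraries and 3.69, 1.72 and 3.93 CPM in WT libraries, 1.96-fold higher (adjusted p = 0.0478). Ror1 had 4.21, 4.33 and 6.17 CPM in EED-/- libraries and 7.9, 8.1 and 8.32 CPM in WT libraries, 1.65-fold lower (adjusted p = 0.0231). Both sets of libraries were separate, but both calls were fragile. Ror1 was not called without EED-/- replicate 1, EED-/- replicate 2 or WT replicate 3 (0.0768 to 0.103), and Ror2 was called only without WT replicate 1 among the fits that leave out a library (0.0624 to 0.153 in the others). Lrp6, Lrp5 and Ryk were not called. Lrp6 averaged 75.5 ± 3.68 CPM in EED-/- and 83.1 ± 11.1 CPM in WT libraries, and Ryk 37.4 ± 1.64 and 40 ± 0.333 CPM.

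Secreted antagonists moved in both directions, 3 higher and 3 lower of 9 tested. Frzb (chromosome 2, 80411970 to 80447625), which encodes a Frizzled-like decoy that binds Wnt proteins, had 4.31, 4.37 and 5.24 CPM in EED-/- libraries, against 19.5, 16.6 and 12.9 CPM in WT libraries. The log2 fold change was -1.81 (SE 0.191, edgeR adjusted p = 0.000461), a 3.52-fold lower level. Wif1, Wnt inhibitory factor, had 3.93, 3.53 and 5.97 CPM in EED-/- and 11.4, 12.7 and 10.1 CPM in WT libraries, 2.55-fold lower (adjusted p = 0.00328). Neither gene's genotypes came close to overlapping. Sfrp4 had 1.99, 2.26 and 2.06 CPM in EED-/- libraries and 2.77, 3.49 and 3.72 CPM in WT libraries, 1.58-fold lower at the threshold itself (adjusted p = 0.0497). Without WT replicate 1 it was still called, and it was not without any other library (0.0983 to 0.166).

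Sfrp2 (chromosome 3, 83766321 to 83774316), a decoy of the same family as Frzb, moved the other way. It had 12.1, 12.7 and 9.94 CPM in EED-/- libraries and 4.57, 3.97 and 4.5 CPM in WT libraries (log2 fold change 1.42, SE 0.164, adjusted p = 0.000715), 2.67-fold higher. Dkk2, which binds Lrp6, had 1.75, 2.07 and 1.91 CPM in EED-/- and 0.513, 0.805 and 0.517 CPM in WT libraries, 3.11-fold higher (adjusted p = 0.00478). Both were far outside the spread of either genotype. Dkk3, a distant relative of the other Dkk genes, had 48.6, 49.8 and 55.2 CPM in EED-/- libraries and 39.2, 35.7 and 35.2 CPM in WT libraries. It was 1.39-fold higher (adjusted p = 0.0134), and not called without WT replicate 3 (0.0676). Sfrp1 averaged 35.4 ± 2.02 CPM in EED-/- and 28.5 ± 1.36 CPM in WT libraries and missed the threshold (adjusted p = 0.0627). Notum, which removes the lipid from Wnt proteins, and Sfrp5 were not called (0.249 and 0.873); Dkk1 had at most 4 counts in any library and Dkk4 had 0.

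R-spondins bind LGR receptors and thereby hold back the ubiquitin ligases Znrf3 and Rnf43, which clear Frizzled from the cell surface. Both R-spondins called were higher; of the LGR receptors Lgr4 and Lgr5 were lower and Lgr6 was higher. Rspo3 had 6.49, 6.26 and 9.5 CPM in EED-/- libraries and 3.28, 4.61 and 3.88 CPM in WT libraries, 1.89-fold higher (adjusted p = 0.0186). Rspo1 had 2.84, 1.88 and 2.25 CPM in EED-/- and 0.872, 0.966 and 1.34 CPM in WT libraries, 2.18-fold higher (adjusted p = 0.0202). Rspo3 was not called without WT replicate 3 (0.0663), nor Rspo1 without EED-/- replicate 1 (0.0926). Rspo2 averaged 2.33 ± 0.508 CPM in EED-/- and 2.13 ± 0.458 CPM in WT libraries and was not called, and Rspo4 had 7, 1 and 1 counts in EED-/- libraries and 2, 1 and 1 counts in WT libraries.

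Lgr5, a stem cell marker of several epithelia and itself a β-catenin target, had 12.8, 12.1 and 14.5 CPM in EED-/- libraries and 21.5, 24.6 and 21.5 CPM in WT libraries, 1.72-fold lower (adjusted p = 0.00372). Lgr4 had 41.7, 40.2 and 43.5 CPM in EED-/- libraries and 57.7, 59.4 and 56 CPM in WT libraries, 1.38-fold lower (adjusted p = 0.0104). Replicates of both genes lay close together within each genotype. Lgr6 had 20.8, 25.8 and 25.7 CPM in EED-/- and 19.4, 18.0 and 16.6 CPM in WT libraries, 1.34-fold higher (adjusted p = 0.049). Lgr4 was not called without EED-/- replicate 1 (0.0601), and Lgr6 was not called without any library other than WT replicate 1 (0.0557 to 0.178). Znrf3 averaged 18 ± 2.43 CPM in EED-/- and 23.9 ± 2.11 CPM in WT libraries (adjusted p = 0.0633), and Rnf43 4.38 ± 0.531 and 3.8 ± 1.24 CPM (adjusted p = 0.593).

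Lef1, a nuclear partner of β-catenin, was higher: 10.7, 11.3 and 8.81 CPM in EED-/- libraries and 4.77, 5.36 and 4.65 CPM in WT libraries, a 2.08-fold difference (log2 fold change 1.06, SE 0.164, adjusted p = 0.00261). No leave-out of a library ended this call. Axin2, the feedback inhibitor that β-catenin induces in most tissues, was not called. It had 25.3, 27.6 and 19.1 CPM in EED-/- libraries and 30.0, 28.0 and 30.3 CPM in WT libraries (log2 fold change -0.29, SE 0.148, adjusted p = 0.183). Tcf7 averaged 6.47 ± 0.52 and 5.17 ± 0.286 CPM (adjusted p = 0.169). Exons of 10 tested members overlap a gene on the other strand: the called members Lef1, Rspo3, Sfrp2, Wnt5a and Wnt7b, and Axin2, Fzd5, Fzd6, Notum and Wnt11, which were not called. No source used here says whether counting used strand, so their levels are uncertain to that extent. The partners of the called members held 40.7 counts or fewer over the 3 EED-/- libraries for Lef1, Rspo3, Sfrp2 and Wnt5a and 50 for Wnt7b, against 464 to 1781 counts for the members themselves.

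A list of 70 Wnt pathway genes outside the family gave 12 higher and 16 lower genes of 66 tested, where 11.7% and 14.1% of all genes tested were. The shares of all genes called, given above for upper-quartile and library size scaling and without each library, apply to these lists too. The clearest fall was Porcn, the enzyme that attaches the lipid to every Wnt protein, at 46.5 ± 0.716 CPM in EED-/- and 115 ± 7.28 CPM in WT libraries, 2.47-fold lower (adjusted p = 0.000122). Wls, the carrier that takes Wnt proteins to the cell surface, was 1.34-fold higher (65 ± 5.75 and 48.6 ± 6.16 CPM, adjusted p = 0.0445). Of 15 tested genes listed as modulators, most of them secreted or at the cell surface, 3 were higher and 2 lower. Tspan12 (1.76-fold), the glypican Gpc4 (1.61-fold) and Musk (2.66-fold) rose, and Mcc (1.88-fold) and Tmem198 (1.48-fold) fell. Musk averaged 0.841 ± 0.29 CPM in EED-/- and 0.312 ± 0.0842 CPM in WT libraries, on 53 against 18 counts. The authors' deposited table did not call Musk (adjusted p 0.145). Fits without 1 library called 1 to 4 of the listed modulators higher and 1 or 2 lower. There was 1 of each without EED-/- replicate 1, EED-/- replicate 2 or WT replicate 3. Wls was not called without any EED-/- library or without WT replicate 3.

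Transducers in the cytoplasm and nucleus were 11 lower and 2 higher of 30 tested, with a median log2 change of -0.27. The co-repressors Tle2 and Tle3 fell 2.15-fold and 2.11-fold and the kinase Csnk1g1 1.69-fold, while their relative Tle4 was 1.38-fold higher. The paired Dishevelled antagonists parted: Nkd2 had 7.19 ± 1.33 CPM in EED-/- and 2.79 ± 0.51 CPM in WT libraries, 2.58-fold higher (adjusted p = 0.00313), and Nkd1 was 1.61-fold lower (adjusted p = 0.0119). Upper-quartile scaling and scaling by library size each gave 7 lower and 4 higher. The lower count was 4 without EED-/- replicate 1, WT replicate 1 or WT replicate 3 and 3 without EED-/- replicate 3; the higher count was 5 without WT replicate 1 and 1 without EED-/- replicate 1 or WT replicate 3. β-catenin itself, Ctnnb1, averaged 543 ± 19.4 CPM in EED-/- and 443 ± 14.4 CPM in WT libraries, and its libraries did not overlap. It was not called by edgeR (adjusted p = 0.0618) and was called higher in the authors' deposited table (log2 fold change 0.32, adjusted p 0.0133).

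Of 12 planar polarity genes Celsr3 was lower (84.3 ± 3.27 and 180 ± 9.86 CPM in EED-/- and WT libraries, adjusted p = 0.000272), and Celsr1 and Prickle2 were 2.31-fold and 1.37-fold higher. Higher genes numbered 1 without EED-/- replicate 1 or 2 and 0 without WT replicate 3. Of 7 tested target genes outside the family 4 were higher and 1 lower. Tnfrsf19 (2.01-fold), Cd44 (2.26-fold), Myc (2.12-fold) and the cyclin Ccnd1 (1.68-fold) rose. Sp5, of the same list, fell to 1.83 ± 0.362 CPM in EED-/-, against 5.17 ± 1.21 CPM in WT libraries (edgeR adjusted p = 0.00358). Such target genes can also respond to other signals, and whether β-catenin moved any of them was not tested.

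Bulk tissue does not tell fewer cells of a type from less RNA per cell, and several cell type markers differed with genotype. All 10 granule neuron markers, among them Gabra6, Cbln3 and Fat2, were lower, and their summed level was 535 to 712 CPM in EED-/- and 4430 to 5627 CPM in WT libraries. All 12 markers of meningeal fibroblasts, which line the brain surface, were higher, with sums of 986 to 1317 and 455 to 530 CPM; 9 to 12 were higher in fits without 1 library. Of 12 skeletal muscle genes 11 were higher (105 to 152 and 6 to 8.05 CPM), and of 12 brainstem and midbrain markers 4 were higher (477 to 597 and 275 to 318 CPM), 3 to 5 without single libraries. Of 10 Purkinje cell markers edgeR called 0, with 3 at an unadjusted p under 0.05 (sums of 5069 to 6780 and 5102 to 6194 CPM). DESeq2 and edgeR without WT replicate 1 each called 2 higher. Limma-voom called 1 higher, as did edgeR with upper-quartile or library size scaling, with no low-count filter or without WT replicate 2. Of 10 Bergmann glia and astrocyte markers 2 were higher and 4 lower (3599 to 5168 and 4205 to 4505 CPM). These overlapping sums held genes that moved in opposite directions. Slc1a3 averaged 429 ± 17 CPM in EED-/- and 1202 ± 96.3 CPM in WT libraries (edgeR adjusted p = 0.000108). Slc1a2 averaged 1811 ± 488 and 1376 ± 133 CPM and was not called (edgeR adjusted p = 0.16). Of 10 endothelial and mural markers 3 were higher (648 to 760 and 586 to 618 CPM), and 1 without EED-/- replicate 1, EED-/- replicate 2 or WT replicate 3. Of 10 choroid plexus and ependymal markers 2 were higher (414 to 839 and 800 to 834 CPM), and 0 without EED-/- replicate 2 or WT replicate 3 and 1 without EED-/- replicate 1, EED-/- replicate 3 or WT replicate 2; without EED-/- replicate 3, 2 were lower. Higher Bergmann glia and astrocyte markers numbered 1 without EED-/- replicate 1, EED-/- replicate 2 or WT replicate 3. The first 2 genes of each list were taken as its defining markers, and none of these was at 0 in any library. The muscle myosins Myh8 and Myh3 were at 0.383 ± 0.066 and 0.455 ± 0.276 CPM in WT libraries. WT means of the other muscle markers lay above and below these, from 0.0179 to 2.94 CPM. Ckm and Chrng had 0 counts in 2 of the 3 WT libraries. The part of these shifts in the levels of Wnt family members was not tested.

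**Figure D5:**
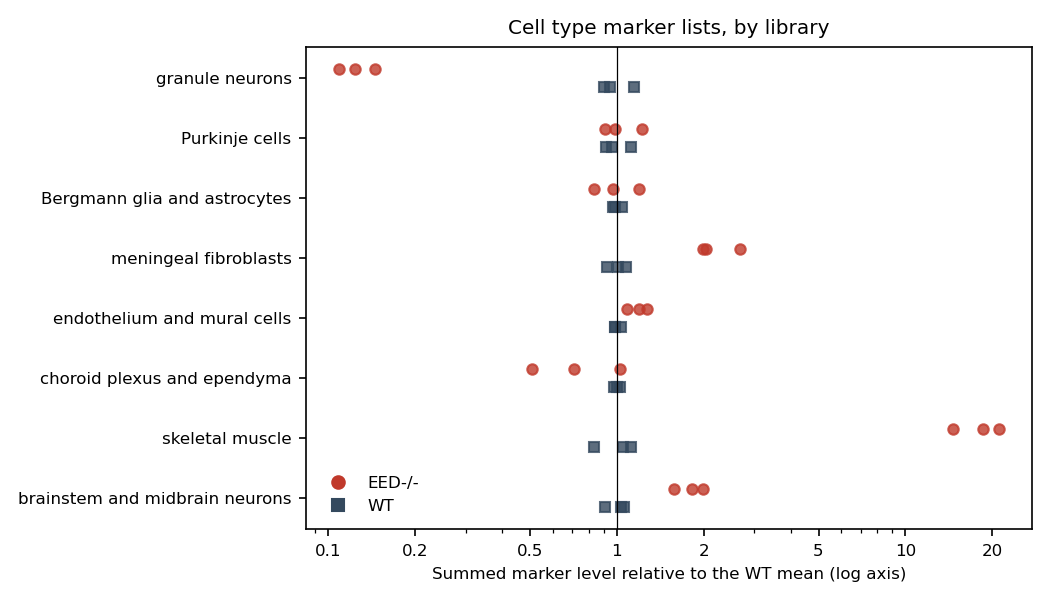
Summed CPM of each cell type marker list in each library, divided by the WT mean (x axis, log scale), for EED-/- (red circles) and WT (dark squares). Granule neuron sums are lower in all 3 EED-/- libraries, and meningeal, muscle and brainstem sums are higher in all 3.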

How the data were processed

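The authors deposited estimated counts per gene, not scaled between libraries. Between 22.5% and 23.6% of each library's values lay off whole numbers (tolerance 1e-06). Salmon 1.1.0, DESeq2 1.26.0, Bowtie2 2.4.1, Trimmomatic 0.36 and MACS2 appear, with the builds GRCm38 and mm10 and no roles, per the submitters' processing notes. Their second deposited table, from the authors' own comparison, holds a mean signal of scaled counts, log2 fold changes with a test score, p-values and adjusted p-values, per the file headers those of DESeq2; its adjusted p is 1 for 14559 genes with a p-value and 20212 without, which were not counted as tested. The 6 ChIP-seq samples were not analysed here.

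Counts were rounded and filtered with filterByExpr, which kept 18091 genes. CPM are scaled by TMM. Differences, EED-/- over WT with genotype as the only term, were tested two-sided with edgeR 4.0.16 (quasi-likelihood F test, robust) in R 4.3.3, with p-values adjusted over all genes tested (Benjamini-Hochberg). SE was taken as |log2 change| over the root of the F statistic. With 3 against 3 libraries an exact permutation test of a single value cannot go below 0.1. On simulated counts for this comparison (17721 genes tested) 58% of genes changed 2-fold and 92% changed 4-fold were called. Of 166 calls 16 were unchanged genes. The changed genes were drawn only above a minimum mean count, so these shares do not cover low-count members such as Wnt8b.

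Exon lengths and positions are from GENCODE vM21 (GRCm38). Sequences were checked base for base against that genome. Values in every library are given for called members of at least 1 CPM in the higher genotype, or changed at least 4-fold; of each pathway list up to 6 called genes with the smallest adjusted p are named, of marker lists the first genes. Slc6a3, Slc6a4, Tph2, Ckm, Chrng, Ctnnb1 and Tcf7l2 were named after their values were seen. Members, lists and tests were chosen with earlier results of these data known. No pair of replicates came near sampling noise: chi-square over its degrees of freedom was 9.11 to 61.4. Alternatives were RLE, upper-quartile and library size scaling, no low-count filter, DESeq2 1.42.0, limma-voom 3.58.1, a replicate block and leaving out each library.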

Additional observations from a re-analysis of the deposited data

How the results depend on the processing

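Of the 26 called members 13 kept their call in each of the 13 alternatives: Dkk2, Frzb, Fzd7, Fzd9, Fzd10, Lef1, Lgr5, Sfrp2, Wif1, Wnt4, Wnt5a, Wnt7a and Wnt10b. No called member changed sign. Members called higher and lower numbered 17 and 9; fits without 1 library called 10 to 18 higher and 5 to 9 lower. Scaling by upper quartile or by library size raised the median log2 change of all genes to 0.09 and 0.073, against -0.027 with TMM. They gave 15.6% and 14.6% of all genes higher and 9.87% and 10.3% lower, and each gave 19 members higher and 8 lower, adding Sfrp1 and Wnt5b to the higher and dropping Sfrp4. Replicate numbers did not pair the samples (correlations of same-numbered deviations 0.0276, -0.233 and -0.00125). With the replicate block 12 members were higher and 7 lower. The share of all genes called was not counted for that fit, RLE scaling, limma-voom or no low-count filter.

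Outside the family, higher secretion genes (Wls) numbered 0 with the replicate block and 0 to 1 without single libraries. Higher listed modulators numbered 5 with upper-quartile scaling or no filter and 1 to 4 without single libraries. Lower ones numbered 1 with RLE, upper-quartile or library size scaling, limma-voom or the replicate block, and 1 to 2 without single libraries. Higher transducers numbered 4 when scaled by upper quartile or library size or with DESeq2, 1 with the replicate block and 1 to 5 without single libraries. Lower transducers numbered 7 when scaled by upper quartile or library size and 3 to 12 without single libraries. Higher polarity genes numbered 1 with the replicate block and 0 to 2 without single libraries. The summed endothelial and mural markers gave a log2 ratio of 0.25 with TMM, 0.36 by upper quartile and 0.35 by library size. The cause of these differences was not tested.

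Sign changes occurred in 9 members that were not called. Scaled by upper quartile and by library size, Fzd2 was 0.07 and 0.06 (-0.04 with TMM), Ryk 0.02 and 0.01, and Sfrp5 0.06 and 0.05. Over the fits without 1 library the log2 fold change ran from -0.19 to 0.17 for Fzd2, -0.01 to 0.26 for Fzd3, -0.07 to 0.31 for Fzd4, -0.03 to 0.14 for Fzd5, -0.04 to 0.29 for Rspo2, -0.16 to 0.06 for Sfrp5, -0.17 to 0.23 for Wnt2b and -0.17 to 0.20 for Wnt9a. Genes under 1 CPM rest on about 20 counts or fewer per library, which limits Wnt8b and the untested members most.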

Other observations

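Tcf7l2, a TCF/LEF factor of the pathway list, had the highest fold of the transducers without being called by edgeR: it averaged 89.3 ± 28.9 CPM in EED-/- and 30.3 ± 16.6 CPM in WT libraries (SD, n = 3 each), 2.95-fold higher (edgeR adjusted p = 0.0631). Its libraries did not overlap, WT replicate 1 was the lowest at 11.2 CPM, and the authors' deposited table called it higher (log2 fold change 1.59, adjusted p 0.0322). Tcf7l2 is known as a marker of thalamus and midbrain neurons, among other cell types, and the source of its higher level was not tested.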
